A study of Mus musculus with 6 samples.

Results

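The MHC class II presentation genes H2-Aa, H2-Ab1, H2-Eb1, H2-Ea-ps, H2-DMa, H2-DMb1, H2-DMb2, H2-Oa, H2-Ob and Cd74 were followed in whole testes of AROM+ and wild-type (WT) mice. They were chosen by name: all 13 non-control probes whose gene name in the scanner files is one of these 10 genes were taken, of 55681 probes and 34844 gene and transcript names in all. AROM+ mice over-express aromatase, which turns androgens into oestrogens, from a transgene. The labels name neither the transgene's promoter nor its species. Each group held 3 samples, each of 1 whole testis of a 5-month male on the labelled C57BL/6 background, and each was hybridised to 1 one-colour Agilent array. The labels do not say whether the 3 testes of a group came from different mice. The p-values thus set differences against the spread between these samples, which may not be that between mice. What was asked here is whether the transcripts of this pathway differ with the transgene.

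MHC class II molecules are heterodimers of an alpha and a beta chain that display peptides from engulfed proteins to CD4 T cells. The invariant chain, Cd74, guides new dimers to endosomes and blocks their groove. H2-DM then removes the remnant of that chain and lets peptides bind, and H2-DO restrains H2-DM. Macrophages, dendritic cells and B cells are the usual carriers of class II, and in the testis the macrophages of the interstitium are known to carry it.

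Values below are log2 intensities after the 75th percentile of the same array was subtracted, and differences are AROM+ minus WT on the log2 scale with the standard error (SE) of a limma fit across all probes that passed a filter on dim spots. Adjusted p is by Benjamini-Hochberg over those 42627 probes, and a probe was called at an adjusted p under 0.05. The 75th percentile of intensity lay between 3696 and 5431, and 76.6% to 80.6% of an array's spots passed the scanner's test against background. The arrays share 1 slide on which each group fills a row, so row and genotype cannot be told apart. The median difference over all probes was −0.19, and 14.1% of probes were called higher and 30.3% lower. With quantile normalization 6641 probes were higher and 9266 lower, against 6006 and 12912 in the main fit. Leaving out WT replicate 1 gave 7586 lower, and leaving out WT replicate 3 gave 6738 lower and 3824 higher. The probe for the mouse gene Cyp19a1, endogenous aromatase, differed by −0.30 ± 0.18 (adjusted p = 0.223), and it may not detect the transgene, so it does not check the labels. Of 9 marker genes of germ, Sertoli, Leydig and muscle cells, all 9 were well above background in both groups, 0 were called higher and 2 lower, the germ cell genes Akap4 (−0.56 ± 0.15, adjusted p = 0.022) and Ddx4 (−0.51 ± 0.15, adjusted p = 0.0354). Their part in the class II values was not tested. One class II gene went against the strain label: H2-Ea-ps, which C57BL/6 mice are known not to transcribe, gave signal on all 3 AROM+ arrays and on 0 WT arrays. Whether the AROM+ mice carry another MHC haplotype was not tested, and if they do, sequence differences under a probe and differences in level cannot be told apart for the chromosome 17 genes below.

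Class II genes were higher in AROM+ testes, but not all of them. By its brightest probe, H2-Ab1, H2-Eb1, H2-Ea-ps, H2-DMb2, H2-Ob and Cd74 were called higher, which is 6 of 10 genes, and 0 were called lower. Over all 28915 gene names the same rule called 14.4% higher and 30.6% lower. H2-Aa, H2-DMa, H2-DMb1 and H2-Oa were not called. Of the 12 probes that passed the filter, 8 were called higher, and in 9 every AROM+ array lay above every WT array, as it did in 17.8% of all probes tested. In 0 of the 12 did every AROM+ array lie below every WT array, as it did in 40.3% of all probes. H2-Ea-ps, H2-DMb2 and 1 of the H2-Ob probes passed the filter through the AROM+ arrays alone and so had to differ. Of the 8 genes well above background on all 6 arrays, 4 were called higher when the filter asked for that. The median difference of the 10 genes was 1.05, or 1.02 with genes measured in AROM+ alone at their bound, and that of all genes was −0.19.

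**Figure D1:**
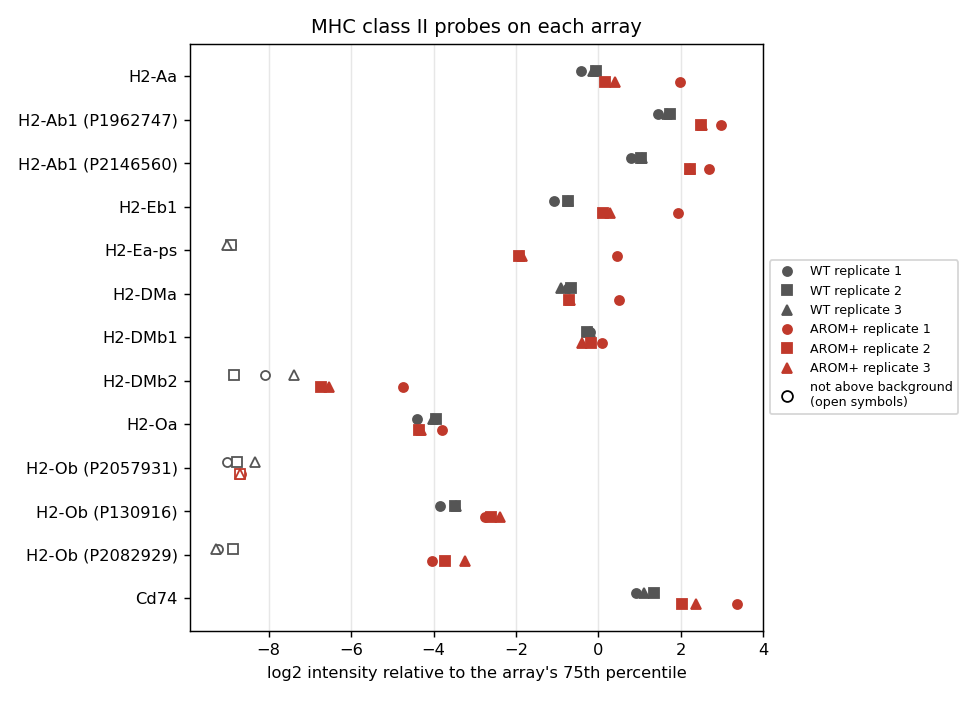
Log2 intensity less the 75th percentile of its array (horizontal axis) of each of the 13 class II probes (rows) on the 3 WT arrays in grey and the 3 AROM+ arrays in red, with open symbols where the probe was not well above background in that group. The circle of AROM+ replicate 1 is the highest AROM+ value in most rows. The WT values of H2-Ea-ps and of the H2-Ob probes A_55_P2082929 and A_55_P2057931 lie between −9.26 and −8.32.

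H2-Ab1 encodes the beta chain of the I-A molecule. Its brighter probe (A_55_P1962747, chromosome 17, 34406296 to 34406355, NCBI37/mm9) read 1.45, 1.72 and 1.65 in WT and 2.97, 2.48 and 2.51 in AROM+. The AROM+ arrays all lay above the WT arrays. The difference was 1.04 ± 0.16 (2.06-fold, adjusted p = 0.00553), and it was called under all 16 other settings tried. The second probe (A_55_P2146560, 34406305 to 34406363) covers nearly the same place, overlapping the first by 51 bases. It read 0.80, 1.02 and 1.05 in WT and 2.68, 2.21 and 2.22 in AROM+, again without overlap. Its difference was larger, 1.42 ± 0.16 (2.67-fold, adjusted p = 0.00346). The overlap holds 1 mismatch, T51C, with the first probe's base first and positions counted from 1 at its 5′ end. A stretch of 30 bases of each is shown because the probes target 1 gene and differ at this base, in capitals.
A_55_P1962747: ctagattacaaataaacgagacTcagactc
A_55_P2146560: ctagattacaaataaacgagacCcagactc

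H2-Aa encodes the alpha chain that pairs with H2-Ab1. Its probe (A_52_P343306, chromosome 17, 34421285 to 34421344, minus strand) read −0.43, −0.07 and −0.14 in WT and 1.98, 0.15 and 0.40 in AROM+. The groups did not overlap, but AROM+ replicates 2 and 3 lay close to WT and replicate 1 far above. The difference of 1.06 ± 0.45 did not pass the test (adjusted p = 0.0974). Without AROM+ replicate 1 it was 0.49 (adjusted p = 0.0536), and it was called under 0 of 16 settings, with adjusted p from 0.0536 to 0.209. The probe is given here because its 60 bases are the only measure of the alpha chain of I-A on the array.
A_52_P343306: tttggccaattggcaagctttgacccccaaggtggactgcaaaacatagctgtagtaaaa

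H2-Eb1 encodes the beta chain of the second molecule, I-E. Its probe (A_55_P2156731, chromosome 17, 34453075 to 34453134) read −1.08, −0.74 and −0.73 in WT and 1.93, 0.11 and 0.28 in AROM+. The groups did not overlap, and AROM+ replicate 1 was again the highest. The difference was 1.63 ± 0.46 (3.09-fold, adjusted p = 0.0283). It was called under 11 of 16 settings. Leaving out any 1 WT array ended the call, at 1.51 without replicate 1 (adjusted p = 0.0805), 1.68 without replicate 2 (adjusted p = 0.0595) and 1.69 without replicate 3 (adjusted p = 0.0718). The call was also lost with no filter on dim probes (adjusted p = 0.0512). Without AROM+ replicate 1 the difference fell to 1.05 and was called (adjusted p = 0.0105).

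H2-Ea-ps, the array's name for the alpha chain gene of I-E, showed the largest bound of the 10 genes. Mouse strains of the b haplotype, C57BL/6 among them, are known to carry a deletion in the promoter of this gene that stops its transcription. RefSeq nonetheless lists the gene of C57BL/6J, under the symbol H2-Ea, as a transcribed pseudogene. The labels give C57BL/6 for both groups here, and the AROM+ values below go against that label. Its probe (A_51_P222741, chromosome 17, 34481469 to 34481528, minus strand) was not well above background on any WT array, with measured values of −8.92, −8.92 and −9.00. All 3 AROM+ arrays measured it, at 0.46, −1.93 and −1.85. Every AROM+ testis gave signal, replicate 1 the most. The level in AROM+ was at least 55.0-fold higher, against a floor on each WT array set by the dimmest probe well above background there. The fitted difference, from the measured WT values, was 7.84 (limma adjusted p = 0.00206). The probe passed the filter through the AROM+ arrays alone, which favoured its call. The bound without AROM+ replicate 1 was at least 32.0-fold. The probe's 60 bases are shown since its signal was present in one group only.
A_51_P222741: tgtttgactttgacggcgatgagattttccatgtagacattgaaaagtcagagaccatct

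Cd74, the invariant chain, lies on another chromosome and has 1 probe (A_51_P284608). It read 0.92, 1.35 and 1.11 in WT and 3.37, 2.03 and 2.37 in AROM+, with no overlap. The difference was 1.46 ± 0.33 (2.76-fold, adjusted p = 0.0143), and it was called under 16 of 16 settings, with adjusted p from 0.00571 to 0.0492. Without AROM+ replicate 1 it was 1.07 (adjusted p = 0.0126).

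**Figure D2:**
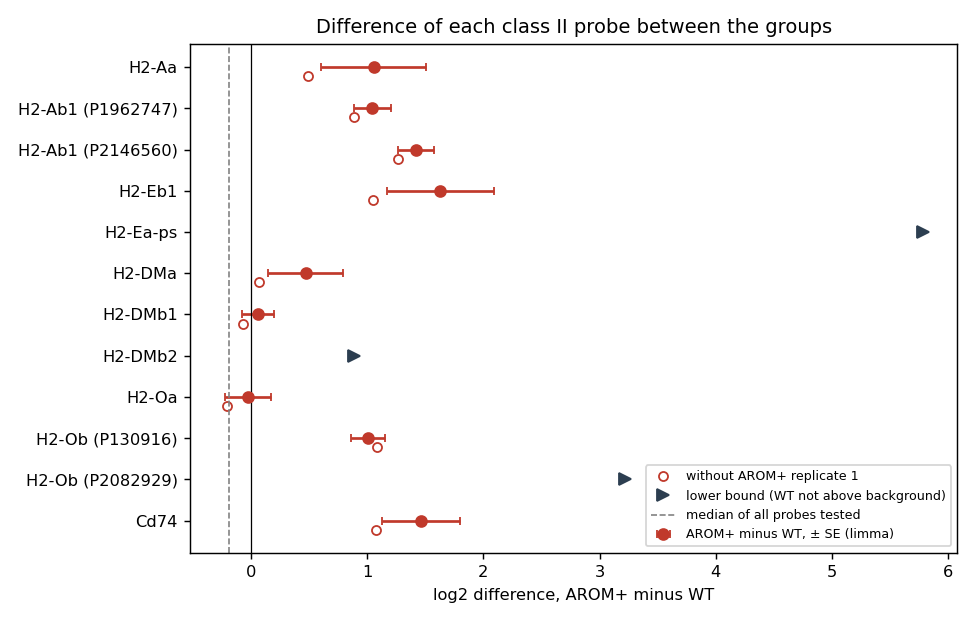
Log2 difference AROM+ minus WT (horizontal axis) of the 12 class II probes that passed the filter, with bars of 1 SE from limma, open circles for the value without AROM+ replicate 1, and triangles for lower bounds where WT was not above background. H2-Ea-ps lies furthest to the right at a bound of 5.78, and H2-DMb1 and H2-Oa lie near 0.

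The genes of the peptide exchange factor H2-DM that were measured in both groups were not called. H2-DMa, its alpha chain (A_51_P473734, chromosome 17, 34274300 to 34274863, a probe split over a gap in the genome), read −0.74, −0.67 and −0.91 in WT and 0.50, −0.71 and −0.69 in AROM+. Only AROM+ replicate 1 stood above WT. The difference was 0.47 ± 0.32 (adjusted p = 0.268), and 0.07 without that array. H2-DMb1, a beta chain (A_51_P278868, 34297109 to 34297168), read −0.20, −0.28 and −0.19 in WT and 0.09, −0.18 and −0.41 in AROM+. These values overlapped, with a difference of 0.06 ± 0.14 (adjusted p = 0.742), which was −0.07 without AROM+ replicate 1.

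H2-DMb2 encodes the other beta chain of H2-DM and was measured in AROM+ only. Its probe (A_52_P1391, 34284764 to 34284823) was not well above background on any WT array, with measured values of −8.09, −8.85 and −7.37. In AROM+ it read −4.74, −6.73 and −6.52, again with replicate 1 the highest. The level was at least 1.85-fold higher in AROM+, and at least 1.20-fold without AROM+ replicate 1. The fitted difference was 2.10 (limma adjusted p = 0.0271), and 1.48 without that array. The probe passed the filter through the AROM+ arrays alone, which favoured its call. This call ended when WT replicate 1 (fitted difference 2.11, adjusted p = 0.0681) or WT replicate 2 (1.73, adjusted p = 0.0744) was left out, and with normexp background correction (fitted difference 0.64, adjusted p = 0.056). The H2-DMb genes are close paralogs whose signals may be hard to separate, so the probe is shown.
A_52_P1391: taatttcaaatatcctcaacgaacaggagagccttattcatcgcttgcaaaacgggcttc

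H2-DO, which holds H2-DM in check and is best known from B cells, was called higher in its beta chain and not in its alpha chain. H2-Oa, the alpha chain (A_51_P449325, chromosome 17, 34232033 to 34232092), read −4.41, −3.94 and −4.02 in WT and −3.79, −4.36 and −4.29 in AROM+. The groups overlapped, and the difference was −0.03 ± 0.20 (adjusted p = 0.92), running from −0.21 to 0.08 over the settings. H2-Ob, the beta chain, has 3 probes. The brightest (A_66_P130916, 34380481 to 34380849, also split over a gap) read −3.83, −3.47 and −3.45 in WT and −2.74, −2.61 and −2.39 in AROM+. It differed by 1.00 ± 0.15 (2.01-fold, adjusted p = 0.00522) and was called under 16 of 16 settings. Whether the H2-Oa and H2-Ob differences differ from each other was not tested.

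A second H2-Ob probe, at the 3′ side of the gene (A_55_P2082929, 34382790 to 34382849), was measured in AROM+ alone. It was not well above background on any WT array, at −9.22, −8.87 and −9.26, and read −4.05, −3.72 and −3.23 in AROM+. Its signal was at least 9.31-fold higher in AROM+, while the brightest probe, nearby in the gene, was measured on all 6 arrays. The fitted difference of the 3′ probe was 5.45 (limma adjusted p = 0.000843). This probe passed the filter through the AROM+ arrays alone, which favoured its call. The third probe (A_55_P2057931, 34377309 to 34377368), designed on a cDNA clone, was not well above background on any of the 6 arrays and was not tested. In contrast to the other class II probes that were called, AROM+ replicate 1 was the lowest of the AROM+ arrays in both measured H2-Ob probes. The whole brightest probe and 30 bases of the 3′ probe, with an AATAAA in capitals, are shown because they disagree in size.
A_66_P130916: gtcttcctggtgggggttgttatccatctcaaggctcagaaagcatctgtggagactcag
A_55_P2082929: ttctacaatgtcAATAAAgaacatccactg

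AROM+ replicate 1 stood apart in most of these genes. It was the highest AROM+ array in 10 of the 12 probes tested, as it was in 25.8% of all probes tested and in 53.7% of the probes called higher. It exceeded the mean of the other AROM+ arrays by 2.35 in H2-Ea-ps, 1.88 in H2-DMb2, 1.74 in H2-Eb1, 1.70 in H2-Aa, 1.21 in H2-DMa and 1.17 in Cd74, but by 0.47 and 0.46 in the H2-Ab1 probes. Among the classical chains the excess was thus smallest in H2-Ab1. Without AROM+ replicate 1, H2-Ab1, H2-Eb1, H2-Ob and Cd74 were still called higher. H2-Ea-ps and H2-DMb2 were called too, which says nothing of stability, since they passed the filter through the AROM+ arrays alone. Interferon-induced chemokine genes also read highest in that array. Cxcl9 read −2.24, −1.68 and −2.25 in WT and 0.56, −2.32 and −2.53 in AROM+. Cxcl10 read −5.77, −4.74 and −4.69 in WT and −1.96, −5.48 and −5.33 in AROM+. Neither passed the test, and their part in the class II values was not tested.

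The 9 class II genes on chromosome 17 lie within 249 kb, and other genes between their outermost probes also differed. Of 8 tested probes of other genes there, 5 were higher and 2 lower, where 14.1% and 30.3% of all probes were. The part of haplotype, raised above, was not tested for any probe of this interval. Those higher include the transporters that load MHC class I, Tap1 (1.97 ± 0.45, adjusted p = 0.0144) and Tap2 (2.59 ± 0.28, adjusted p = 0.00344), and the immunoproteasome subunits Psmb8 (2.05 ± 0.33) and Psmb9 (1.46 ± 0.32). These genes read highest in AROM+ replicate 1, as most class II genes did. A transcript listed as LOC100502931, next to Tap2, read −7.61, −7.56 and −6.66 in WT, where 1 of 3 arrays was well above background, and −0.91, −0.81 and −0.33 in AROM+. Like the H2-Ob probes, it had no excess in AROM+ replicate 1. It is among the 5 higher and passed the filter through the AROM+ arrays alone, which favoured its call. Brd2, a chromatin reader, was called lower by both probes (−0.31 ± 0.10 and −0.35 ± 0.10). These were −0.23 and −0.37 without AROM+ replicate 1 and not called (adjusted p = 0.117 and 0.0633). H2-Eb2, a class II beta chain gene outside the 10, differed by −0.15 ± 0.22 (adjusted p = 0.596).

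**Figure D3:**
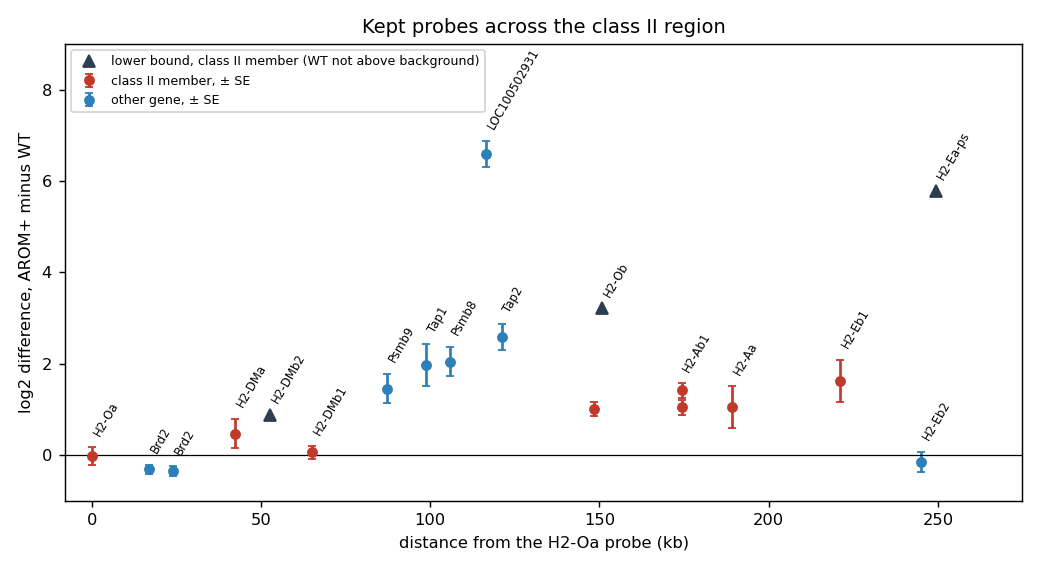
Log2 difference AROM+ minus WT with SE from limma (vertical axis) against distance in kb from the H2-Oa probe (horizontal axis) for tested probes of class II members (red), of other genes (blue), and for lower bounds of members (triangles). The differences at H2-Oa, H2-DMb1 and H2-Eb2 lie near 0, and those of the Brd2 probes lie at −0.31 and −0.35. The highest symbols are the bound of H2-Ea-ps and LOC100502931, of which 2 of 3 WT arrays were not above background.

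Promoters of class II genes are known for a pair of elements, the X box, bound by the RFX complex, and the Y box, bound by NF-Y, on which the coactivator CIITA assembles. RefSeq promoters (GRCm38.p6, 250 bases before to 50 after a start) were taken for 7 of the 10 genes. Cd74, which lies on another chromosome, was left out of this search. The letters GCAAC, a core of the X box, followed 20 to 35 bases on by ATTGG, the Y box, occurred on the gene's strand in 0.39% of 32851 promoters. They occurred in the promoters of 4 of the 7 genes, H2-Aa, H2-Eb1, H2-Oa and H2-Ob. CCAAT on either strand, whose reverse complement is ATTGG, was in promoters of all 7 genes and in 37.4% of all promoters. TGACG on either strand was in that of H2-Aa and in 20.8% of all promoters. H2-DMa lacks the pair, and its stretch is not shown. The 45 bases that end in ATTGG are shown for 6 genes, with GCAAC and ATTGG in capitals, because they let the pattern be set beside the values above.
H2-Aa, chr17:34287867-34287911, minus strand: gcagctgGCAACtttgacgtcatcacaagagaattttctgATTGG
H2-Eb1, chr17:34305768-34305812, plus strand: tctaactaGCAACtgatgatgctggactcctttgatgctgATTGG
H2-Ob, chr17:34238808-34238852, plus strand: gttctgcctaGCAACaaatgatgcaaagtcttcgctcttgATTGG
H2-Oa, chr17:34092296-34092340, plus strand: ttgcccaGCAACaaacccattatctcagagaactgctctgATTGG
H2-DMb1, chr17:34153090-34153134, plus strand: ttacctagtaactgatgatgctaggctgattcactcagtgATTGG
H2-DMb2, chr17:34145119-34145163, plus strand: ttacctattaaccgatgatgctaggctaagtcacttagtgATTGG

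The stretches of H2-DMb1 and H2-DMb2 are the same at 40 of 45 bases and hold no GCAAC. H2-DMb1 was not called, and H2-DMb2 passed the filter through the AROM+ arrays alone, so their calls cannot be compared. H2-Oa holds the same pair of letters as H2-Aa, H2-Eb1 and H2-Ob and was not called. A match is a description of these letters and shows no binding. The letters are those of the reference genome, and whether the AROM+ promoters hold the same letters was not tested.

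Of 8 genes that control class II transcription 1 was called higher and 2 lower (median −0.03), shares near the 14.4% and 30.6% of all genes. Ciita, the coactivator that class II transcription depends on, read 1.85, 1.52 and 2.05 in WT and 1.76, 1.63 and 1.82 in AROM+. These values overlapped, and the difference was −0.07 ± 0.15 (adjusted p = 0.731). Of the RFX complex, Rfx5 (−0.59 ± 0.11, adjusted p = 0.00917) and Rfxank (−0.45 ± 0.09, adjusted p = 0.00927) were lower. Nfya, a subunit of NF-Y, was higher by 0.33 ± 0.10, a call that was lost when any 1 array other than AROM+ replicate 3 was left out, with the difference at 0.30 without AROM+ replicate 1.

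Genes that prepare peptides for class II were higher. Of 8 tested antigen processing genes 7 were called higher and 0 lower (median 1.53). Over all genes 14.4% were called higher and 30.6% lower, also the shares for the trafficking count below. Ctss, the cathepsin that trims the invariant chain, read 0.36, 0.63 and 0.52 in WT and 3.02, 2.32 and 3.12 in AROM+, a difference of 2.32 ± 0.22 (adjusted p = 0.00275). The groups were far apart, with no excess in replicate 1 over replicate 3. Ctsz (1.95 ± 0.16), Ctsh (1.73 ± 0.28) and Ifi30, the thiol reductase of endosomes (1.70 ± 0.26), were also higher, while Ctsl differed by 0.06 ± 0.11 (adjusted p = 0.687). Of 8 trafficking and turnover genes 6 were higher and 0 lower (median 0.67), among them the tetraspanins Cd53 (2.34 ± 0.34), Cd9 (1.66 ± 0.19) and Cd63 (0.81 ± 0.09) and the ubiquitin ligase March8 (0.92 ± 0.09). March1, the ligase that removes class II from the surface, differed by −0.29 ± 0.10 by its brightest probe (adjusted p = 0.0547) and by 2.30 by the other.

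Interferon gamma is the main inducer of class II outside professional carriers. Ifng itself was not well above background on all arrays of either group. Of 11 tested genes of its axis 6 were higher and 0 lower (median 0.63), with Irf1 at 1.07 ± 0.27, the receptor chain Ifngr1 at 0.74 ± 0.11, Jak2 at 0.71 ± 0.14 and Jak1 at 0.50 ± 0.11. Without WT replicate 1, without WT replicate 3 or with spike-in scaling 3 of these genes were higher. Of 7 tested co-stimulation genes, whose products act beside class II on T cells, 4 were higher and 0 lower (median 1.45). For this list and the interferon gamma axis, the shares over all genes were 14.4% higher and 30.6% lower. Cd86 rose by 2.21 ± 0.40, the adhesion gene Icam1 by 1.78 ± 0.23, Icosl by 1.69 ± 0.18 and Cd274 by 0.76 ± 0.19.

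**Figure D4:**
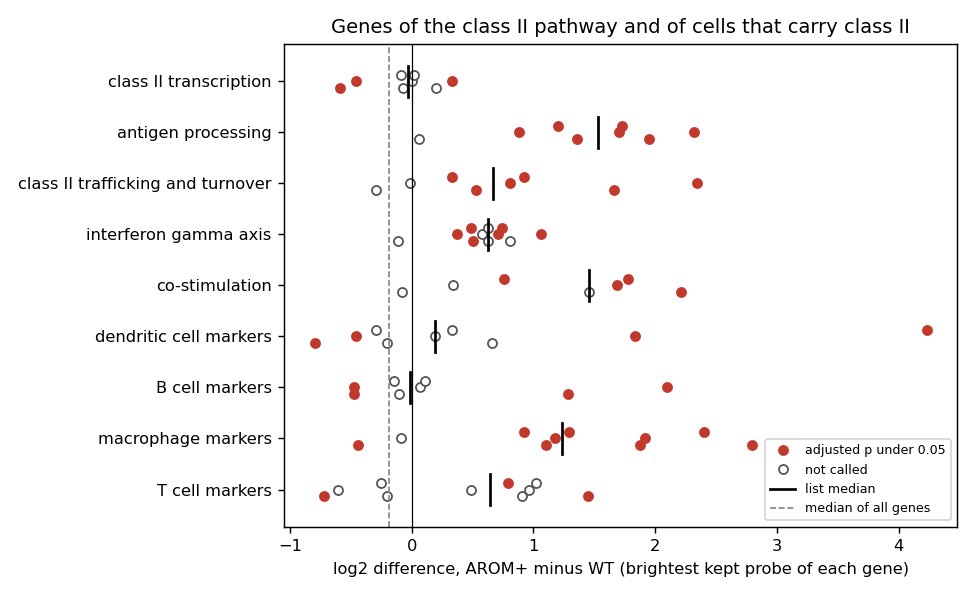
Log2 difference AROM+ minus WT of each tested gene by its brightest probe (horizontal axis), by list (rows), filled where called by limma at an adjusted p under 0.05, with the list median as a black bar and the median of all genes dashed. Antigen processing, co-stimulation and macrophage lists have medians of 1.53, 1.45 and 1.23, and the class II transcription list has a median of −0.03.

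Among markers of cells that carry class II, 8 of 10 for macrophages were higher, against 14.4% of all genes, while 2 of 9 for dendritic cells and 2 of 8 for B cells were, with 2 lower in each, against 30.6% of all genes. The macrophage list had 1 gene lower (median 1.23), with Lyz2 at 2.79 ± 0.36, Cd68 at 2.40 ± 0.28, Adgre1 at 1.91 ± 0.22 and Fcgr1 at 1.87 ± 0.40. The 1 lower, Csf1r at −0.44 by its brightest probe, was at 1.54 and 2.04 by its other probes, and it was no longer called lower when WT replicate 1 or 2 or AROM+ replicate 2 was left out. The summed linear level of the macrophage list ran from 29.9 to 42.8 times the 75th percentile in WT and from 43.8 to 54.3 in AROM+. Itgam made up 60.1% of that sum, at −0.09 ± 0.16 by its brightest probe and −0.05 and 0.84 by its other probes. Without Itgam the sums were 8.91 to 11.8 in WT and 18.6 to 29.2 in AROM+. The dendritic list had a median of 0.19, with Itgax, also a macrophage integrin, at 4.23 ± 0.45, Clec10a at 1.83 ± 0.60, Zbtb46 at −0.80 ± 0.10 and Flt3 at −0.46 ± 0.10. Clec10a was at 1.16 without AROM+ replicate 1 and no longer called (adjusted p = 0.0571). Leaving out WT replicate 1 or 3 also left 1 marker higher, and leaving out WT replicate 3 left 1 lower. Cd209a and Clec9a were well above background on 0 WT arrays and on 1 AROM+ array each. Xcr1, Batf3, Ccr7 and Irf4 were well above background on all arrays and not called, at 0.19, 0.66, −0.29 and 0.33. Summed levels were 10.8 to 12.04 in WT and 10.5 to 11.6 in AROM+. Siglech made up 81.3% of them, at −0.21 ± 0.10 by its brightest probe and 3.24 by its other, and without it the sums were 1.51 to 1.65 in WT and 2.17 to 3.47 in AROM+.

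The B cell list had a median of −0.02. Cd79b was at 2.10 ± 0.32, Blnk at 1.28 ± 0.21 and Pax5 at −0.47 ± 0.09, and Ms4a1 was well above background on 1 of 6 arrays. The number lower was 1 when any array other than AROM+ replicate 2 was left out. Summed levels were 5.72 to 5.79 in WT and 6.02 to 6.54 in AROM+, of which Cd22, at −0.10 and not called, made up 62.7%. Of 10 tested T cell markers 2 were higher and 1 lower (median 0.64). The share higher was near the 14.4% of all genes, and the share lower was below their 30.6%. Cd28 was at 1.45 ± 0.22, Cd4 at 0.79 ± 0.18 (its other probe at −0.28) and Cd3d at −0.72 ± 0.19. The number higher was 5 without AROM+ replicate 2 and 1 without WT replicate 3, and the number lower was 3 without AROM+ replicate 1 and 0 without WT replicate 2 or 3. Summed levels overlapped, at 2.91 to 3.23 in WT and 2.30 to 3.67 in AROM+. In whole testes, more cells of a type and more RNA per cell cannot be told apart, and the part of these cells in the class II values was not tested.

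The pattern most like that of the class II genes was sought by the smallest root mean square gap over the 6 arrays to the mean profile of Cd74, H2-Aa, H2-Ab1 and H2-Eb1, each gene counted from its WT mean. Among 18282 other named genes well above background on all arrays, the closest were Nfatc1 (gap 0.08), Gbp3 (0.09), Gimap4 (0.10), Dtx3l (0.11), Gbp7 (0.12) and Nfam1 (0.13), against a median gap of 1.13. Of the class II genes in that mean, the one furthest from it had a gap of 0.33, wider than those of the closest genes. The mean profile itself stood at 2.15, 0.77 and 0.97 above WT in AROM+ replicates 1, 2 and 3. Gbp3 and Gbp7 encode interferon-induced GTPases and Gimap4 a GTPase of lymphocytes.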

How the data were processed

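Total RNA of 6 whole testes was hybridised to one-colour Agilent arrays. The authors deposited the scanner's spot intensity values from Agilent Feature Extraction (the file headers give version 10.7.3.1, the submitters' processing notes 10.10), whose processed signal has background removed by the software. The authors also deposited a table of log2 values, each column of which tracks log2 of the processed signal with slope 1.00, less a constant per array, with genes not centred. Its WT columns have medians of −3.12, −3.11 and −3.09, and its AROM+ columns −3.05, −3.09 and −3.02.

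For this report the processed signal was put on the log2 scale and the array's own 75th percentile subtracted, without 3671 control spots and spots with outlier flags (123 to 192 per array). No spot was saturated. Spots of one probe were averaged, and a probe was tested if 1 or both groups had it well above background on all 3 arrays. The comparison used lmFit and eBayes of limma 3.58.1 (R 4.3.3) over 42627 probes with Benjamini-Hochberg adjustment; the fit was tested on simulated data. A gene counts by its brightest tested probe. Probes were named from the files and, for 26161, through accessions in the RefSeq table of GRCm38.p6; probe positions are those of the files. The 10 genes, the other lists and the naming rule (all member probes, up to 4 called genes of largest difference per list, tested genes between the outermost member probes, and the 6 genes of most alike profile) were chosen with earlier results of these data known. The number of arrays limits the precision. Some list genes are not reported here.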

Additional observations from a re-analysis of the deposited data

How the results depend on the processing

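Settings other than the main one were normexp background correction, quantile normalization, centring on the probe median, spike-in scaling, the deposited log2 table, other filters, 1 probe per gene name, eBayes with a trend, the replicate block and leaving out each array. Of the 10 class II genes, between 4 and 6 were called higher and 0 lower under all 16. H2-Ab1, H2-Ob and Cd74 were called higher under all 16. H2-Ea-ps was called under the 15 that tested it, which says nothing of stability, since it is tested through the AROM+ arrays alone, while H2-Aa, H2-DMa, H2-DMb1 and H2-Oa were called under none. The replicate block left 5 class II genes higher, with H2-Eb1 lost at 1.63. Replicate numbers do not pair the arrays: deviations of same-numbered arrays correlated at 0.05, −0.15 and 0.04, and 0 of 6 arrays correlated best with their own number. Blocking moved the probes called to 5088 higher and 9980 lower.

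With spike-in scaling 3811 probes were higher, as were 3 interferon gamma genes, 1 dendritic and 1 T cell marker and 0 transcription genes. Transcription genes higher were also 0 with normexp, no filter and the replicate block. Trafficking genes lower were 1 with 1 probe per gene name and with a trend. Dendritic markers higher were 1 with quantile normalization, no filter and the replicate block, and 3 with normexp. B cell markers lower were 1 with quantile normalization, spike-in scaling, no filter, the replicate block and a trend. Macrophage markers lower were 0 with quantile normalization, spike-in scaling and the replicate block. T cell markers lower were 2 with normexp, a filter on all arrays and 1 probe per gene name. The cause of these moves was not tested.

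Leaving out 1 array gave 3824 to 5635 probes higher and 6738 to 11390 lower, 0 to 1 transcription genes higher, 0 to 1 trafficking genes lower, 3 to 6 interferon gamma genes higher, 1 to 2 dendritic markers higher and 1 to 2 lower, 1 to 2 B cell and 0 to 1 macrophage markers lower, and 1 to 5 T cell markers higher and 0 to 3 lower. H2-DMb1, not called, ran from −0.067 (without AROM+ replicate 1, reversed) to 0.18. H2-Oa ran from −0.208 to 0.0805, with its sign turned at 0.065 and 0.026 without WT replicates 2 and 3 and at 0.080 and 0.047 without AROM+ replicates 2 and 3. Signal over background limits H2-Ea-ps, H2-DMb2 and the 3′ H2-Ob probe in WT to bounds.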
